A study of Mus musculus with 6 samples.

Results

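The proteasome genes described here are the genes of the deposited count table whose symbol is Psma to Psmg followed by a number, together with Pomp, Adrm1 and Nfe2l1. This rule uses symbols only and gave 51 of the 24421 listed genes, of which 47 had enough counts to be tested. The cells were 3T3-L1, a line of mouse fibroblasts that can be turned into fat cells, kept undifferentiated and dividing in high-glucose medium with serum, and their RNA was sequenced after depletion of ribosomal RNA. Wild-type cells (3 libraries) were compared with Ube3d knockout cells (3 libraries), with no other allele or treatment named for either group. Ube3d encodes a ubiquitin ligase. The titles call the libraries biological replicates. Whether the knockout is 1 clone, and how separate the cultures were, is stated in no source used here. The p-values therefore rest on the spread among these libraries only, which may be technical.

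The proteasome degrades proteins that carry ubiquitin chains. Its 20S core is a barrel of stacked rings, with outer rings of alpha subunits (Psma genes) that gate the entry and inner rings of beta subunits (Psmb genes) that hold the proteolytic sites. The 19S regulatory particle caps the core: its base unfolds substrates with a ring of ATPases (Psmc genes), and its lid (Psmd genes) removes the ubiquitin chain. Interferon replaces the catalytic beta subunits with inducible ones to form the immunoproteasome, activators of the Psme family can bind in place of the 19S cap, and dedicated chaperones assemble the particle. In mammalian cells the transcription factor NFE2L1 raises proteasome gene transcription when proteasome activity is low.

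The libraries held between 23767181 and 29389480 gene counts. The targeted gene, listed as Ube2cbp, was at 6.21, 7.71 and 6.46 CPM (counts scaled to a library size of 1000000) in wild type and 2.20, 1.58 and 1.89 CPM in the knockout, and the counts do not show which part of the gene was altered. All 8 fibroblast markers examined were at 1 CPM or more in both genotypes, with a summed level of 13222 to 13622 CPM in wild type and 9817 to 10114 CPM in the knockout, and 7 of the 8 fell. The part of this and of the other marker differences in the proteasome values was not tested. The 5 mature adipocyte markers summed to 3.43 to 3.92 CPM in wild type and 0.865 to 1.17 CPM in the knockout, and Fabp4, the only one tested, fell (log2 −1.83, edgeR adjusted p = 1.7e-12). The 5 endothelial markers summed to 0.600 to 1.08 CPM and 1.45 to 2.42 CPM, with Vwf higher (log2 2.13), and the 6 macrophage markers to 5.35 to 6.67 CPM and 6.68 to 7.30 CPM, with Cd68 higher (log2 0.71) and Lyz2 lower (log2 −1.55). The 5 epithelial markers summed to 0.623 CPM at most. Epcam, Krt18, Adgre1 and Lep were at 0 in every library. In bulk RNA, fewer cells of a type and less RNA per cell cannot be told apart.

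More of the tested proteasome genes fell than rose in the knockout, each by less than 1.5-fold. Of the 47 tested genes, 25 fell, 7 rose and 15 did not pass the test (edgeR quasi-likelihood test, adjusted p under 0.05 over all 12947 tested genes). Over all tested genes, 31.2% were called lower and 30.3% higher, 61.4% in either direction. The median log2 fold change of the 47 genes was −0.11, against 0.004 for all tested genes. The groups of libraries did not overlap for 35 of the 47 genes, 26 lower and 9 higher in the knockout, where 64.3% of all tested genes had groups apart. By direction, 32.5% of all tested genes were apart and lower, and 31.8% apart and higher. None of the 47 tested proteasome genes reached a 1.5-fold change, which 17% of all tested genes did; Psmb8, too low to be tested, had 14 counts in wild type and 0 in the knockout. At 1.2-fold or more, 1 gene rose and 7 fell, where 20.2% of all tested genes rose and 17.2% fell by as much. All 47 tested genes averaged at least 10 CPM, and among the genes of that level 7.09% reached 1.5-fold, 37.3% were called lower and 29.2% higher, 66.4% in either direction. The largest fall was that of the lid deubiquitinase gene Psmd14 (log2 −0.54) and the largest rise that of the core subunit gene Psmb4 (log2 0.37). The genes with low counts that could not be tested were Psmb8, Psmb9, Psmb11 and Psma8.

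**Figure D1:**
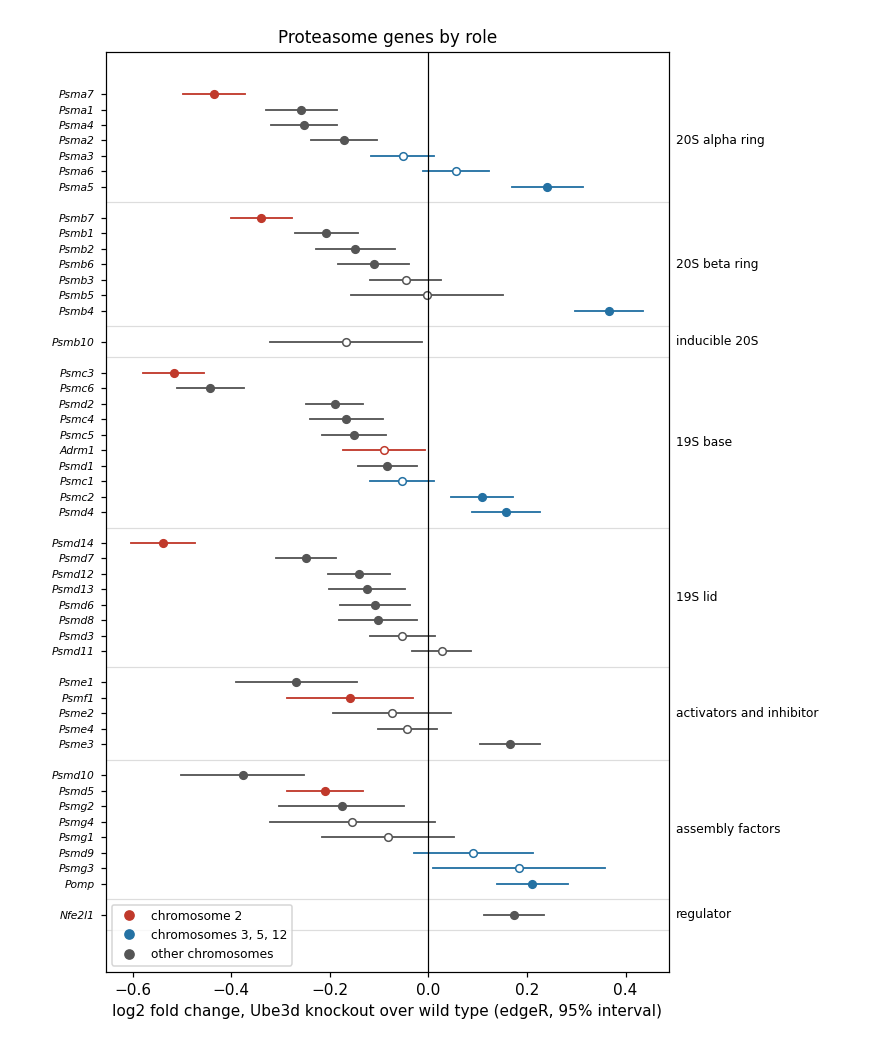
Log2 fold change (knockout over wild type, x axis) with its 95% interval for the 47 tested proteasome genes, grouped by role. Filled points passed the edgeR test and open points did not; colours mark chromosome 2, chromosomes 3, 5 and 12, and all others. Most points lie left of 0, from −0.54 for Psmd14 to 0.37 for Psmb4.

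The regulator gene Nfe2l1 rose while most subunit genes fell. It lies at chr11:96817414-96829968 on the minus strand of GRCm38. Nfe2l1 was at 241, 228 and 242 CPM in wild type and 271, 260 and 270 CPM in the knockout. All 3 knockout values exceeded the wild-type ones, a 1.13-fold rise (log2 0.17, SE 0.03, edgeR adjusted p = 1.1e-06). Over all tested genes, 30.3% were called higher and 31.2% lower. Of 15 genes that process NFE2L1 or act with or beside it, fixed as a list, 6 rose and 7 fell (median log2 0.001). Among them, Nfe2l3, a close relative of Nfe2l1, rose 1.65-fold from 3.26 ± 0.59 to 5.45 ± 0.77 CPM (SD, n = 3 libraries; edgeR adjusted p = 1.1e-05). Sel1l, a part of the endoplasmic reticulum ligase complex through which NFE2L1 is turned over, rose 1.25-fold to 151 ± 1.4 CPM. It lies on chromosome 12, where the median log2 change of all tested genes was 0.19. Maff, a small MAF gene, fell 1.42-fold to 8.67 ± 0.55 CPM. The NFE2L1-processing genes Vcp and Ngly1 fell 1.09-fold and 1.10-fold, and Ddi2, which encodes the protease that cuts NFE2L1, did not pass the test (log2 −0.05, 95% interval −0.18 to 0.08).

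NFE2L1 and its relatives bind antioxidant response elements with small MAF partners, so the start-site windows of the proteasome genes were searched for one form of that element's core, TGACNNNGC, on both strands. The RefSeq table for GRCm38.p6 gave a window of 250 bases before to 50 bases after the start for 43 of the 51 genes. The core was found in 7 of them (16.3%), namely Adrm1, Psmb5, Psmb6, Psmc6, Psmd9, Psmd12 and Psme4, and in 14% of all 27025 genes with a window. The stretches below, 60 bases each and all upstream of the start, are shown because they hold the match in 4 of these genes, among them 2 catalytic subunit genes, a ubiquitin receptor gene and the ATPase gene with the largest fall off chromosome 2. Capitals mark the match, which for Psmc6 is on the other strand.
Psmb5, chr14:54618009-54618068, minus strand: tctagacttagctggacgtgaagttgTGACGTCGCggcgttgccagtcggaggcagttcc
Psmb6, chr11:70525297-70525356, plus strand: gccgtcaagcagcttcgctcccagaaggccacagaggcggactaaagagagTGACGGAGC
Adrm1, chr2:180171400-180171459, plus strand: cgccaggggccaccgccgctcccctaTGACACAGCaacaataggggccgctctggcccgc
Psmc6, chr14:45329574-45329633, plus strand: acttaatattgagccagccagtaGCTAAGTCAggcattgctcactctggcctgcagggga
The first matched base lies 47 bases before the start in Psmb5, 9 in Psmb6, 162 in Adrm1 and 227 in Psmc6. These 4 genes did not move alike: Psmc6 fell (log2 −0.44), Psmb6 fell slightly (−0.11), and Adrm1 (−0.09) and Psmb5 (−0.004) did not pass the test. CCAAT, the core bound by NF-Y, was found in 16 of the 43 genes (37.2%) and in 41.1% of all genes, on either strand. The core of interferon-stimulated elements, GAAA repeated after any 2 bases, was found in 5 of the 43 genes (Psmb3, Psmd4, Psmd9, Psme1 and Psmg4, 11.6%) and in 3.99% of all genes. A match describes the letters of the window only.

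In the alpha ring of the 20S core, which gates entry to the barrel, 4 of 7 genes fell, 1 rose and 2 did not pass the test (median log2 −0.17). For comparison, 37.3% of all tested genes averaging at least 10 CPM were called lower and 29.2% higher, 66.4% in either direction. Psma7 was at 180, 171 and 179 CPM in wild type and 129, 134 and 129 CPM in the knockout. The groups were far apart, and the fall was 1.35-fold (log2 −0.44, SE 0.03, edgeR adjusted p = 3.1e-20). Psma1 was at 104, 102 and 104 CPM in wild type and 84.4, 86.0 and 89.3 CPM in the knockout, a fall with no overlap (log2 −0.26, SE 0.04, edgeR adjusted p = 5.0e-09). Psma4 went from 154, 146 and 161 CPM to 126, 133 and 127 CPM, also without overlap (1.19-fold lower, log2 −0.25, SE 0.03, edgeR adjusted p = 8.6e-10). Exons of Psma4 overlap those of AY074887 on the other strand, and no source used here gives the strand setting of the counts. Psma2 fell less (log2 −0.17). Psma5 moved the other way: every knockout library, at 108, 114 and 114 CPM, lay above the wild-type 97.9, 92.1 and 94.1 CPM (1.18-fold higher, edgeR adjusted p = 2.2e-08). For Psma3 (log2 −0.05, 95% interval −0.12 to 0.01) and Psma6 (0.06, −0.01 to 0.12) the libraries of the genotypes overlapped. Psma3 passed without wild-type replicate 2 (edgeR adjusted p = 0.0389) and Psma6 without wild-type replicate 3 (0.0278). Subunits that are built into the same ring at equal numbers ranged from −0.44 (Psma7, on chromosome 2) to 0.24 (Psma5, on chromosome 3) in log2 change. The medians of all tested genes of these chromosomes were −0.24 and 0.30.

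The beta ring gave the same counts, with 4 of 7 genes lower, 1 higher and 2 not past the threshold (median log2 −0.11). The shares over all tested genes averaging at least 10 CPM were again 37.3% lower and 29.2% higher. Psmb4, a structural subunit, was at 129, 118 and 112 CPM in wild type and 152, 157 and 153 CPM in the knockout. It was the proteasome gene with the largest rise, 1.29-fold and without overlap (log2 0.37, SE 0.03, edgeR adjusted p = 1.5e-14). Psmb7, which carries the trypsin-like site, went from 179, 170 and 177 CPM to 138, 136 and 141 CPM, a 1.27-fold fall (log2 −0.34, SE 0.03, edgeR adjusted p = 1.6e-15). Psmb1, a structural subunit, fell 1.15-fold from 184, 166 and 180 CPM to 148, 156 and 155 CPM, and again the groups did not overlap (log2 −0.21, SE 0.03, edgeR adjusted p = 8.2e-08). Psmb2 and Psmb6 fell by 0.15 and 0.11 on the log2 scale. Psmb6 carries the caspase-like site. Psmb3 did not pass the test (log2 −0.05, 95% interval −0.12 to 0.03).

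The subunit of the chymotrypsin-like site, Psmb5, stood apart in level rather than in response. It had 15.4, 17.4 and 13.9 CPM in wild type and 15.1, 16.5 and 15.2 CPM in the knockout, with full overlap (log2 −0.004, 95% interval −0.16 to 0.15). Per kilobase of exon, Psmb5 was at 17.9 ± 2.0 CPM in wild type, while the other beta ring genes lay between 86.9 CPM (Psmb2) and 181 CPM (Psmb7) and the alpha ring genes between 77.8 CPM (Psma5) and 140 CPM (Psma4). GENCODE M21 lists processed pseudogenes named for Psmb5, Psmb6 and Psmb7. No source used here says how reads with several alignments were counted, so the levels of these 3 genes are uncertain. Psmb5 also overlaps Mir686 on its own strand. The part of pseudogenes in the low Psmb5 level was not tested.

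The inducible subunits were scarce in both genotypes. Psmb10, the inducible counterpart of Psmb7, was the only one with enough counts to test. It was at 14.2, 14.9 and 15.2 CPM in wild type and 13.1, 13.4 and 13.03 CPM in the knockout; the groups did not overlap, but the difference missed the threshold (log2 −0.17, SE 0.08, edgeR adjusted p = 0.055). Psmb10 passed without wild-type replicate 1 (edgeR adjusted p = 0.0397). Psmb8, the counterpart of Psmb5, had 4, 5 and 5 counts in the wild-type libraries and 0 in each knockout library. Against a floor of 3 counts over the whole knockout group, it was 4.70-fold lower. This figure takes the wild-type counts as exact, so it is not a lower limit that includes their counting error. Psmb8 was too low for the count filter; without the filter edgeR gave an adjusted p of 0.0021, and DESeq2 gave 0.0091. Psmb9, the counterpart of Psmb6, had 3, 0 and 6 counts in wild type against 3, 0 and 0 in the knockout (ratio 0.331, exact 95% interval 0.0577 to 1.33, counting error only). The thymus-specific Psmb11 had 0 wild-type counts and 2 knockout counts, and the testis-specific Psma8 had 0 in all 6 libraries, which allows up to 0.0375 CPM in wild type and 0.0373 CPM in the knockout. Psmb8, Psmb9 and Psmb10 together made up 3.76% ± 0.18 of the summed per-kilobase level of the 6 catalytic genes in wild type and 3.87% ± 0.09 in the knockout (SD, n = 3 libraries), nearly all of it Psmb10. This share carries the uncertainty in the levels of Psmb5, Psmb6 and Psmb7 given above, which the SD does not include. The genotypes' ranges overlapped, at 3.55% to 3.87% and 3.76% to 3.93%.

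**Figure D2:**
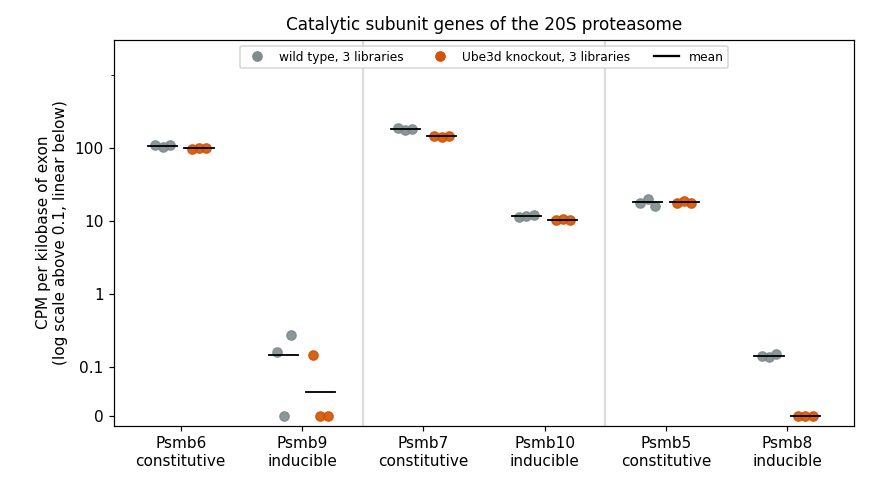
Level per library (CPM per kilobase of exon, log scale above 0.1) of the constitutive catalytic genes Psmb6, Psmb7 and Psmb5, each beside its inducible counterpart; points are libraries and bars are means of 3. Psmb10 lies near 10, and Psmb9 and Psmb8 near or at 0.

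The base of the 19S particle had 6 of 10 genes lower, 2 higher and 2 not past the threshold (median log2 −0.12). Of all tested genes averaging at least 10 CPM, 37.3% were called lower and 29.2% higher. Psmc3, an ATPase of the ring, was at 190, 190 and 198 CPM in wild type and 133, 136 and 136 CPM in the knockout. This 1.43-fold fall left no overlap (log2 −0.52, SE 0.03, edgeR adjusted p = 1.8e-24). Psmc6, another ATPase, was at 131, 133 and 131 CPM in wild type and 94.8, 96.6 and 99.3 CPM in the knockout, a 1.36-fold fall (log2 −0.44, SE 0.03, edgeR adjusted p = 7.8e-19). Psmd2, the most abundant proteasome transcript in CPM and a scaffold that binds shuttle receptors, fell 1.14-fold from 449, 432 and 441 CPM to 383, 384 and 392.4 CPM (log2 −0.19, SE 0.03, edgeR adjusted p = 5.5e-08). In each of these genes every knockout library lay below every wild-type library. Psmc4, Psmc5 and the scaffold gene Psmd1 fell by 0.17, 0.15 and 0.08 on the log2 scale, while Psmc2 rose 1.08-fold and the ubiquitin receptor gene Psmd4 rose 1.11-fold. The call of Psmd1 was lost without knockout replicate 1 (edgeR adjusted p = 0.115) or knockout replicate 3 (edgeR adjusted p = 0.0617). Psmc1 (log2 −0.05, 95% interval −0.12 to 0.01) and the ubiquitin receptor gene Adrm1 did not pass the test. Adrm1 gave −0.09 with an edgeR adjusted p of 0.0575, and it passed without wild-type replicate 2 (0.0156) or knockout replicate 2 (0.0301). The ATPases of this hexameric ring ranged from −0.52 (Psmc3, on chromosome 2) to 0.11 (Psmc2, on chromosome 5) in log2 change. The medians of all tested genes of these chromosomes were −0.24 and 0.19.

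The lid had 6 of 8 genes lower, 0 higher and 2 not past the threshold (median log2 −0.12). Among all tested genes with at least 10 CPM on average, 37.3% were called lower, 29.2% higher and 66.4% in either direction. Psmd14, the metalloprotease that cleaves the ubiquitin chain from the substrate, was at 170, 163 and 176 CPM in wild type and 116, 116 and 118 CPM in the knockout. It had the largest fall of the 47 tested genes, 1.45-fold (log2 −0.54, SE 0.03, edgeR adjusted p = 3.9e-24). Psmd7, its partner in the deubiquitinating dimer, went from 218, 210 and 218 CPM to 185, 175 and 184 CPM, a 1.19-fold fall (log2 −0.25, SE 0.03, edgeR adjusted p = 9.6e-11). Psmd12 fell 1.10-fold from 154, 150 and 156 CPM to 137, 140 and 141 CPM (log2 −0.14, SE 0.03, edgeR adjusted p = 7.6e-05). None of these 3 genes had overlapping groups. Psmd13, Psmd6 and Psmd8 fell by 0.12, 0.11 and 0.10 on the log2 scale. The call of Psmd8, whose groups overlapped, was lost without knockout replicate 1 (edgeR adjusted p = 0.211), without wild-type replicate 1 (0.0796) and with DESeq2 (0.0542), and that of Psmd6 without knockout replicate 3 (0.0732). Psmd3 (log2 −0.05, 95% interval −0.12 to 0.01) and Psmd11 (0.03, −0.03 to 0.09) did not pass the test.

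Summed over their genes, the parts of the particle were lower by a small margin. The summed level per kilobase of the alpha ring was 774 ± 19.95 CPM in wild type and 710 ± 10.5 CPM in the knockout, which is 91.7% of wild type. The corresponding values were 94.5% for the beta ring, 90.4% for the base and 88.7% for the lid (613.7 ± 2.1 CPM in the knockout against 692 ± 13.2 CPM in wild type, SD, n = 3 libraries). Every knockout library lay below every wild-type library in each of these 4 sums. The ratio of the summed 20S level to the summed 19S level was 1.014, 0.980 and 0.978 in the wild-type libraries, below the knockout values of 1.02, 1.04 and 1.03. These sums and the ratio depend on which chromosomes are included. Without genes on chromosomes 2, 3, 5 and 12, the alpha ring was at 85.6% of wild type and the beta ring at 91.6%. The base was then at 87.3% and the lid at 92.4%. The ratio was not computed for this subset. Its higher values in the knockout are thus given for the full gene set only, and may not hold off these chromosomes. As sums over chosen genes, these values were given no test.

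**Figure D3:**
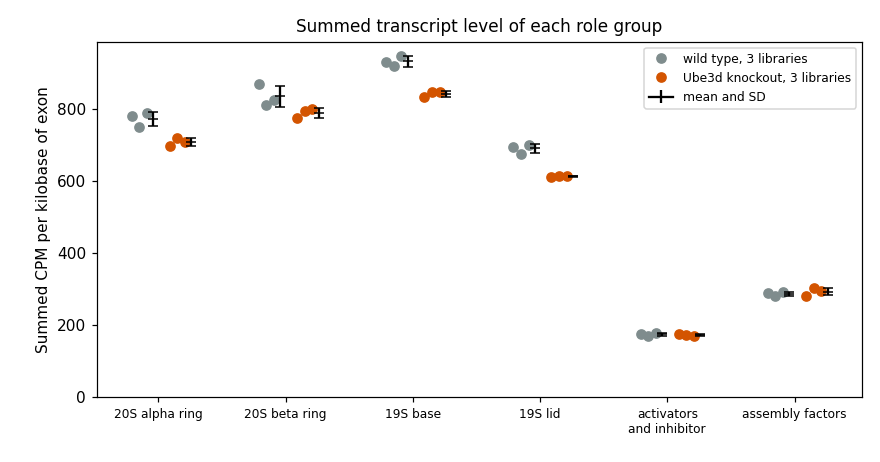
Summed level (CPM per kilobase of exon) of each role group in every library, with the mean and SD of 3 libraries beside the points. The knockout points lie below the wild-type points in the rings, the base and the lid, and the groups overlap for the activators and inhibitor and for the assembly factors.

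Activators that can cap the core in place of the 19S particle moved in both directions. Psme3, which encodes the nuclear activator PA28-gamma, was at 154, 146 and 150 CPM in wild type and 170, 171 and 164 CPM in the knockout. Every knockout library was higher (1.12-fold, log2 0.17, SE 0.03, edgeR adjusted p = 3.9e-06). Psme1, the alpha subunit of the interferon-inducible PA28, was at 25.5, 25.8 and 27.0 CPM in wild type and 21.0, 21.6 and 22.5 CPM in the knockout, lower in every library (log2 −0.27, SE 0.06, edgeR adjusted p = 1.3e-04). Exons of Psme1 overlap those of Emc9 on the other strand. Its partner Psme2 did not pass the test, at 31.9, 27.5 and 30.6 CPM against 30.9, 26.6 and 27.9 CPM (log2 −0.07, 95% interval −0.19 to 0.05). Psme4, which encodes PA200, overlapped as well, at 337, 341 and 350 CPM in wild type and 333, 339 and 327 CPM in the knockout (log2 −0.04, 95% interval −0.10 to 0.02). Psmf1, the inhibitor PI31, was at 24.6, 25.3 and 24.7 CPM against 24.4, 22.0 and 20.4 CPM (log2 −0.16, SE 0.06, edgeR adjusted p = 0.0265). The groups were just apart, and the call was lost with DESeq2 (adjusted p = 0.0914) and without wild-type replicate 2, knockout replicate 2 or knockout replicate 3 (edgeR adjusted p between 0.0623 and 0.221).

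Among 8 assembly factors, 3 fell, 1 rose and 4 did not pass the test (median log2 −0.12). Of all tested genes with at least 10 CPM on average, 37.3% were called lower and 29.2% higher. Psmd10, the base chaperone gankyrin, had 26.3, 26.7 and 30.1 CPM in wild type and 20.7, 21.6 and 21.8 CPM in the knockout, a 1.30-fold fall without overlap (log2 −0.38, SE 0.06, edgeR adjusted p = 3.3e-07). Pomp, which guides beta ring assembly, rose 1.16-fold from 97.7, 93.0 and 99.0 CPM to 106, 114 and 115 CPM, with every knockout library higher (log2 0.21, SE 0.04, edgeR adjusted p = 8.3e-07). Psmd5, another base chaperone, fell 1.16-fold from 97.4, 99.3 and 97.8 CPM to 80.5, 91.4 and 82.5 CPM (log2 −0.21, SE 0.04, edgeR adjusted p = 2.9e-06). The third base chaperone gene, Psmd9, did not pass the test (log2 0.09, 95% interval −0.03 to 0.21). Of the alpha ring assembly chaperones Psmg1 to Psmg4, Psmg2 fell by 0.18 on the log2 scale, and this call was lost without wild-type replicate 1 (edgeR adjusted p = 0.0972). Psmg3 gave 0.18 with an edgeR adjusted p of 0.0634 and passed without knockout replicate 3 (0.0437). Psmg1 (−0.08) and Psmg4 (−0.15) did not pass, though Psmg4 did without knockout replicate 2 (edgeR adjusted p = 0.0287).

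Proteasome genes on chromosome 2 mostly fell and those on chromosome 3 rose. On chromosome 2, 6 of the 7 proteasome genes fell and 0 rose, with a median log2 change of −0.34: Psmd14, Psmc3, Psma7, Psmb7, Psmd5 and Psmf1 fell, and Adrm1 did not pass. The median of all 1024 tested genes of chromosome 2 was −0.24, and 58.4% of them were called lower. On chromosome 3 all 3 proteasome genes (Psmb4, Psma5 and Psmd4) rose, on chromosome 5 Pomp and Psmc2 rose and Psmg3 and Psmd9 did not pass, and on chromosome 12 none of the 3 (Psma3, Psma6 and Psmc1) passed. The medians of all tested genes were 0.30, 0.19 and 0.19 on chromosomes 3, 5 and 12, and 61.3% of the tested genes of these chromosomes were called higher. Of the 7 proteasome genes that rose, 5 lie on chromosomes 3 and 5, and the other 2, Nfe2l1 and Psme3, on chromosome 11. These chromosomes were singled out with their medians known, and the part of the chromosome in each gene's change was not tested.

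Away from chromosomes 2, 3, 5 and 12, the subunits of the 20S core and 19S particle spanned a narrower range. Of these 20 genes, 16 fell, 0 rose and 4 did not pass the test, with a median log2 change of −0.14 and a range of −0.44 (Psmc6) to 0.03 (Psmd11). Among all genes tested off those chromosomes, 32.3% were called lower and 25.9% higher, and the median was −0.02. The SD of the log2 change over these 20 genes was 0.10, against 0.20 over all 32 subunit genes. The 4 chromosomes were left out with their medians known, so a narrower spread was built into this choice. Whether the spread of all tested genes narrows as much was not computed. Of the 32, 28 lay below the median of their own chromosome, by a median of 0.14 over the 32 genes. Fitted alone, without the 4 chromosomes, the genes gave 14 of the 20 lower and 0 higher. Psmd1 and Psmd8 were those lost (edgeR adjusted p = 0.0767 and 0.0781). The shares of 32.3% and 25.9% belong to the main fit and are not the background of this one. Over all genes of this separate fit, lower calls still outnumbered higher ones, but the numbers were closer to equal than in the main fit.

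**Figure D4:**
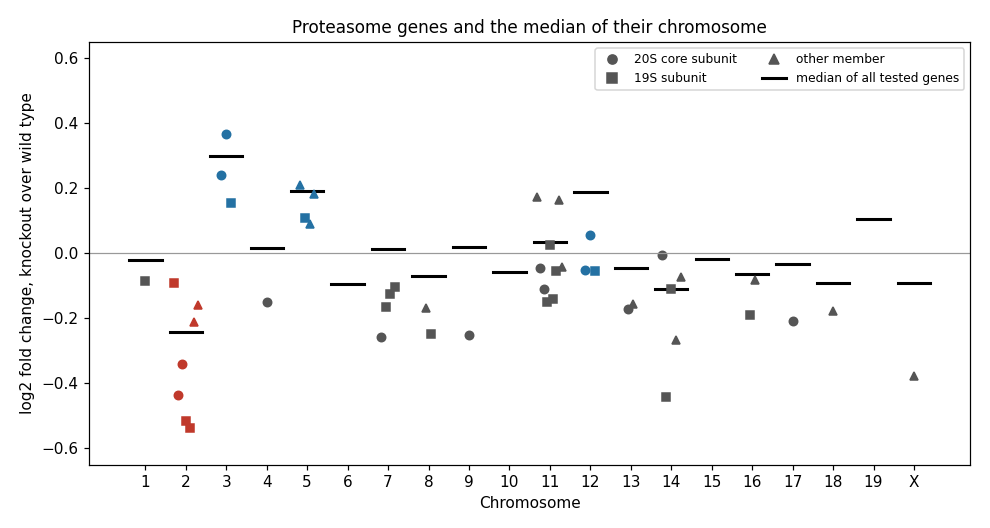
Log2 fold change (y axis) of each tested proteasome gene by chromosome, with a black bar for the median of all tested genes of that chromosome; red marks chromosome 2 and blue chromosomes 3, 5 and 12. The red points lie below 0, the points of chromosomes 3 and 5 above it, and most points elsewhere below their bar.

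Other genes of the pathway, from lists fixed by function, moved in both directions. Of 9 genes of proteasome-associated factors found in the table, 4 fell and 3 rose (median log2 −0.04). Beside this list and the shuttle receptors below, 37.3% of all tested genes averaging at least 10 CPM were called lower and 29.2% higher. Usp14, a deubiquitinase bound to the base, fell 1.21-fold from 155, 156 and 159 CPM to 133, 128 and 125 CPM (log2 −0.28, edgeR adjusted p = 8.0e-12), and Uchl5, the deubiquitinase held by ADRM1, fell 1.18-fold. Exons of Usp14 overlap those of Thoc1 on the other strand. Ube3c, a proteasome-bound ubiquitin ligase, rose 1.25-fold and Zfand2a 1.38-fold, from 38.0 ± 2.0 to 52.6 ± 2.5 CPM (edgeR adjusted p = 3.8e-13), and both lie on chromosome 5. Shfm1, which encodes the small lid subunit SEM1 under its older symbol, did not pass the test (log2 −0.04, 95% interval −0.11 to 0.03). Of 6 shuttle receptors, which carry ubiquitinated proteins to the proteasome, 2 rose and 1 fell: Ubqln4 on chromosome 3 rose 1.32-fold, Ubqln2 rose 1.06-fold and Rad23b fell 1.19-fold. The call of Ubqln2 was lost without knockout replicate 2 or 3 (edgeR adjusted p = 0.0533 and 0.0603).

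Genes of antigen processing and of interferon signalling, which work with the immunoproteasome, were mostly lower in the knockout. Of 13 such genes 10 fell and 1 rose (median log2 −0.36), and 5 of them reached 1.5-fold, where 31.2% of all tested genes were called lower, 30.3% higher and 17% reached 1.5-fold. Nlrc5, the transactivator of class I genes, was at 1.37, 1.68 and 0.934 CPM in wild type and 0.236, 0.293 and 0.249 CPM in the knockout (log2 −2.34, SE 0.35, edgeR adjusted p = 3.3e-08). Tap2, a subunit of the peptide transporter that lies beside Psmb8 on chromosome 17, went from 2.87, 3.13 and 3.06 CPM to 0.629, 0.917 and 0.925 CPM (3.64-fold lower, edgeR adjusted p = 2.1e-11). H2-K1, a class I heavy chain gene, fell 2.88-fold from 27.8 ± 0.91 to 9.66 ± 0.85 CPM (edgeR adjusted p = 2.2e-29). Class I genes resemble each other, so the split of their reads is uncertain. No knockout library overlapped the wild type in any of these 3 genes. Among the interferon-inducible proteasome genes, Psme1 fell (log2 −0.27), the low counts of Psmb8 were lower in the knockout, and Psmb10 and Psme2 missed the threshold.

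**Figure D5:**
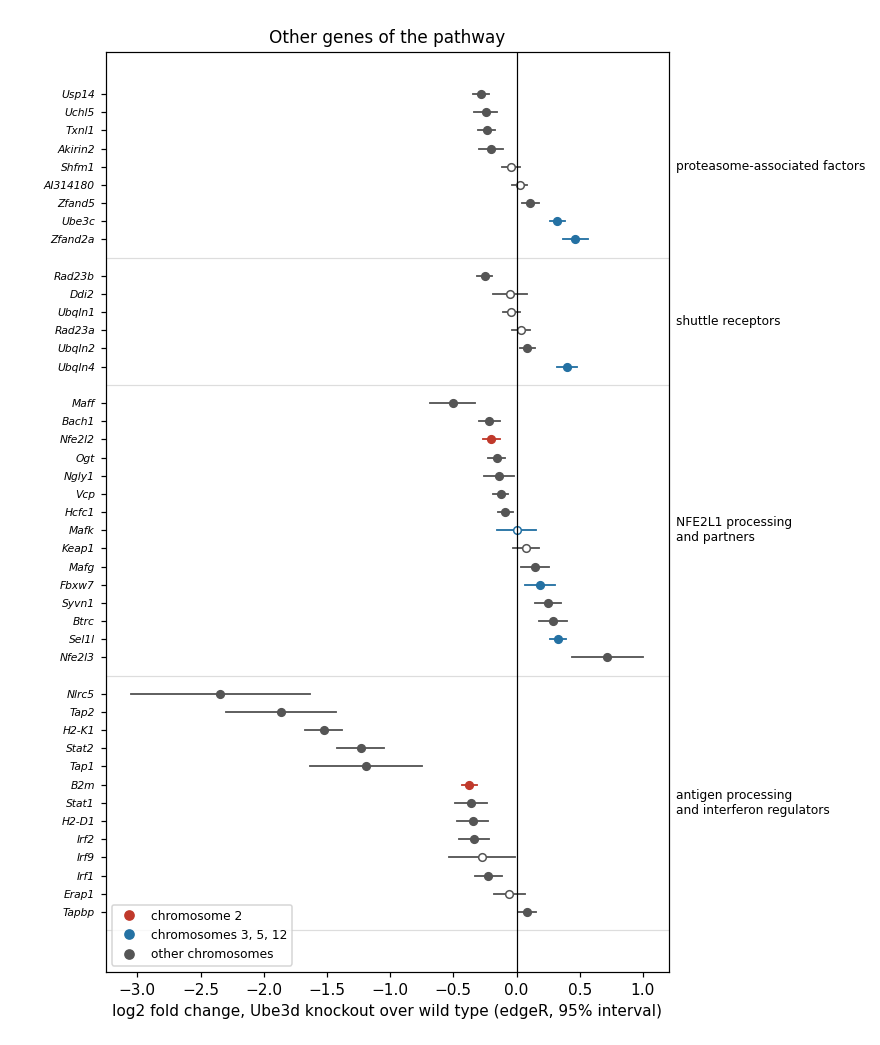
Log2 fold change (knockout over wild type, x axis) with its 95% interval for the tested genes of 4 related lists; filled points passed the edgeR test, and colours mark chromosomes as named in the key. The antigen processing list reaches −2.34 (Nlrc5), while the other lists lie between −0.50 (Maff) and 0.72 (Nfe2l3).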

How the data were processed

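The deposited table holds whole-number read counts for each gene, beside exon coordinates, strand and exon length. The submitters' processing notes list STAR 2.6.1d, featureCounts 1.6.3 and the builds mm10 and GRCm38, without tying them to a file. Per the labels' protocols, libraries were stranded and depleted of ribosomal RNA. Downstream-of-gene counts carry no gene names and were not used. Replicates of a genotype differed by more than sampling noise (chi-square per gene 2.04 to 6.35).

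All 12947 genes passing filterByExpr (minimum count 10, total 15) entered a fit by edgeR 4.0.16 under R 4.3.3 (quasi-likelihood, robust, TMM, Benjamini-Hochberg, two-sided). CPM values use TMM-scaled library sizes. Each SE was derived from the log2 fold change and its F statistic. In simulated counts for this comparison (12947 genes), 54% of 50 genes changed 1.2-fold and 86% of 50 changed 1.5-fold were called, with 7 false calls. The simulation changed only 50 genes at each of the folds 1.2, 1.5, 2 and 4, drawn from all tested genes. In the data 61.4% of tested genes were called, so these recovery rates need not hold here. Alternatives used DESeq2 1.42.0 and limma 3.58.1. Tables and plots used Python 3.11.15. Members, lists and named genes were chosen with earlier results of these data known: full values are given for the 3 largest changes of each role, and all tested inducible subunits, activators and the regulator. The planned protein comparison of catalytic pairs was not made. A further planned gene list is not reported here.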

Additional observations from a re-analysis of the deposited data

How the results depend on the processing

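Of the 32 calls among proteasome genes, 27 held under every alternative run on them (the fit off chromosomes 2, 3, 5 and 12 leaves out 11 of the 32), and those of Psmd1, Psmd6, Psmd8, Psmf1 and Psmg2 were lost under at least 1. With the replicate number as a block, 7 proteasome genes were higher and 25 lower, as without it, and the block changed no call. Same-numbered libraries did not deviate together (r = −0.03 for each of the 3 pairs). With 3 libraries per genotype this cannot settle whether a number marks a shared batch, and the titles do not say. Over libraries left out in turn, 7 to 8 proteasome genes were higher and 22 to 26 lower, the median log2 change ran from −0.14 to −0.10, and over the 32 core and 19S genes from −0.15 to −0.11. The alpha ring had 1 to 2 genes higher, the assembly factors 1 to 2, the inducible subunits 0 to 1 lower, and the activators and inhibitor 1 to 2 lower with a median of −0.138 to −0.058. Fitting only genes off chromosomes 2, 3, 5 and 12, which leaves fewer members, gave 2 proteasome genes higher, 0 in each ring, the base, the assembly factors and the core and 19S genes together, and 1 activator or inhibitor lower; the median was −0.23 for the alpha ring and −0.0859 for the lid. DESeq2 called 1 inducible gene (Psmb8) and 1 activator or inhibitor lower, and edgeR without the count filter 1 inducible gene. Psmb5 stayed within noise, but its log2 change turned positive, to 0.00402 at a filter of 1 CPM, 0.00205 with the block, 0.00258 without Rn45s and 0.0186 off the 4 chromosomes, and ran from −0.0827 to 0.0867 over libraries left out in turn. Summed over CPM instead of per kilobase, the inducible share was 4.77% in wild type and 4.91% in the knockout. Depth limits Psmb8, Psmb9, Psmb11 and Psma8, which had 14 counts or fewer per genotype.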

Other observations

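Proteasome genes were also set beside their neighbours. Of the 47 tested genes, 38 had a lower log2 change than the median of the tested genes that start within 5 Mb, and of the 32 subunits of the core and 19S particle 29 did. Psma7 and Adrm1 lie 129.1 kb apart on chromosome 2, yet their log2 changes were −0.44 and −0.09, with neighbour medians of −0.17 and −0.22. Psmd10 on the X chromosome (−0.38) had a neighbour median of −0.24, and Psmc6 on chromosome 14 (−0.44) one of −0.22. Psme3 and Nfe2l1 on chromosome 11 (0.17 each) had neighbour medians of 0.01 and 0.003. These values were given no test, and the neighbours were not matched for level.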
